A study of Mus musculus with 73 samples.

Results

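CXC chemokines were followed in microglia sorted from mouse brain. The members were Cxcl1, Cxcl2, Cxcl9, Cxcl10, Cxcl13, Cxcl14 and Cxcl16, taken by symbol from the deposited expression tables, so that 7 of the 39179 listed genes are described. All members were listed, each under a single gene ID, in all 3 tables. The rule names symbols and uses no measured value, but earlier results of these data were known when it was written.

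CXC chemokines are small secreted proteins that attract immune cells through receptors coupled to G proteins. CXCL1 and CXCL2 act on the receptor CXCR2 of neutrophils, CXCL9 and CXCL10 on CXCR3 of activated T and NK cells, CXCL13 on CXCR5 of B cells and CXCL16 on CXCR6 of T and NK cells, while the receptor of CXCL14 is not settled. Microglia, the resident macrophages of the brain, make several of them when innate immune receptors or interferons are engaged, and transcription factors of the NF-κB and interferon-regulatory families act on many of their promoters.

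Microglia positive for CD11b and CD45 were isolated by fluorescence-activated sorting from brains of C57BL/6 mice, and their mRNA was sequenced in 73 libraries. The mice were wild type (WT), 5xFAD, which carry human transgenes, APP among them, with familial Alzheimer's disease mutations under a neuronal promoter, or 5xFAD lacking the inhibitory sialic acid receptor CD33 (5xFAD;CD33-/-, called CD33 knockout), the activating lipid receptor TREM2 (5xFAD;TREM2-/-, called TREM2 knockout) or both (5xFAD;CD33-/-;TREM2-/-, called double knockout). All knockout groups therefore carried the 5xFAD transgenes, and no receptor was deleted on a WT background. At 4 months there were 7 WT, 9 5xFAD, 4 CD33 knockout, 4 TREM2 knockout and 2 double knockout libraries. At 8 months a first table held 11 5xFAD and 12 CD33 knockout libraries, and a second held 6 WT, 10 5xFAD and 8 TREM2 knockout libraries. Values are RPKM, read numbers scaled by gene length and by library size, so levels can be compared between genes, and the ± after a mean is a standard deviation (SD). No test crossed the 3 tables, which were normalised separately.

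Depth, in units of 1e6 reads, was 28.94 to 79.65 per library at 4 months and, at 8 months, 26.75 to 42.79 (CD33 table) and 21.19 to 51.03 (TREM2 table). The 8 microglia markers, among them P2ry12 and Tmem119, summed to 8380 RPKM or more in every library. The targeted transcripts checked the labels, with 2 exceptions. Cd33 was 135.8 ± 12 RPKM (n = 9) in 5xFAD at 4 months and at most 0.205 in the CD33 knockouts of that age, but 14.02 RPKM were seen in the library labelled double knockout replicate 1, and 19.1 in that labelled CD33 knockout replicate 7 at 8 months. Trem2 was at least 13.7 and at most 36.3 RPKM in the libraries lacking TREM2, against 740.3 ± 90.4 (n = 9) and 808 ± 104 (n = 10) in 5xFAD at 4 and 8 months. At 4 months 3 libraries, double knockout replicate 1, CD33 knockout replicate 2 and TREM2 knockout replicate 9, held both Xist and Y-linked reads. Results that rest on these libraries are given with and without them.

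Of the members, 5 lie on chromosome 5 (GRCm38, GENCODE M21). Cxcl1 (ENSMUSG00000029380, chr5:90891241-90893115, plus strand) and Cxcl2 (ENSMUSG00000058427, chr5:90903871-90905938, plus strand) are neighbours, as are Cxcl9 (ENSMUSG00000029417, chr5:92321347-92328079, minus strand) and Cxcl10 (ENSMUSG00000034855, chr5:92346638-92348889, minus strand). Cxcl13 (ENSMUSG00000023078, chr5:95956951-95961068, plus strand) stands apart from both pairs. Cxcl14 (ENSMUSG00000021508, chr13:56288643-56296551, minus strand) and Cxcl16 (ENSMUSG00000018920, chr11:70453983-70459984, minus strand) lie on other chromosomes. All are protein-coding genes.

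Promoter windows of 6 of the 7 members were found in RefSeq (GRCm38.p6), each of 300 bases, most of them upstream of the start site; Cxcl16 was not among them. Both strands were searched for the NF-κB (κB) consensus, an interferon-type motif (GAAA, then any 2 bases, then GAAA), the AP-1 motif TGANTCA, the cyclic AMP response motif TGACGTCA and the TATA box TATAAA. Shown are the windows of the members that rose together in 5xFAD and held a κB or interferon-type match, with matches to any of the 5 motifs in capitals. They cover chr5:90890995-90891294 (plus strand) for Cxcl1, chr5:90903649-90903948 (plus strand) for Cxcl2, chr5:92348840-92349139 (minus strand) for Cxcl10 and chr13:56296502-56296801 (minus strand) for Cxcl14.
Cxcl1: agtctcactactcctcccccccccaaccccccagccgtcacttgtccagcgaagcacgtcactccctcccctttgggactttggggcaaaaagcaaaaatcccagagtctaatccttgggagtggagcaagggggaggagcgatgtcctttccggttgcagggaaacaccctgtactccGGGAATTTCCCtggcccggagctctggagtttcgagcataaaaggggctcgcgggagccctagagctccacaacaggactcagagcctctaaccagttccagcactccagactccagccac
Cxcl2: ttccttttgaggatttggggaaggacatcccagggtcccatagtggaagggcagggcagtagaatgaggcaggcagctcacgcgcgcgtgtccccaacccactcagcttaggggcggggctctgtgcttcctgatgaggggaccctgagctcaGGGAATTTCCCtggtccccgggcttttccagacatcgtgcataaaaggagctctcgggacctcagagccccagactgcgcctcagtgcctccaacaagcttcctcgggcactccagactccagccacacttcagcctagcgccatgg
Cxcl10: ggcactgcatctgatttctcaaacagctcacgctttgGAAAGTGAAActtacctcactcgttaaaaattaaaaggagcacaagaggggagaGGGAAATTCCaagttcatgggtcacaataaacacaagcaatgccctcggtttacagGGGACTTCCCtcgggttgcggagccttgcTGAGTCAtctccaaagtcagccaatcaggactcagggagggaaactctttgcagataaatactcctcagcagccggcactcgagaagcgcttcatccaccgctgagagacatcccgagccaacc
Cxcl14: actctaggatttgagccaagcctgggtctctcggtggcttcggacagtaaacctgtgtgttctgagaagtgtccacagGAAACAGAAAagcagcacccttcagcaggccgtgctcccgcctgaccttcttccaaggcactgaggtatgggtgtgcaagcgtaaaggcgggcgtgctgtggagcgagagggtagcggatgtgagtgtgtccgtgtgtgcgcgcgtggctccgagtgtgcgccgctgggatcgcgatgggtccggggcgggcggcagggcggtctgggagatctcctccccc

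The windows of Cxcl1 and Cxcl2 each hold the same palindromic κB match, on both strands with all but the end bases overlapping, from -71 and from -97 relative to the start site, counted as 0. That of Cxcl10 holds 2 κB matches, from -159 and from -103, an interferon-type match from -213 and an AP-1 match from -74. Cxcl14 has an interferon-type match from -172 and no κB match. Of the windows not shown, Cxcl9 has a TATA box from -195 and an AP-1 match from 31, and Cxcl13 a TATA box from -46. Over 32851 mouse promoters of the same length, 4.51% held the κB consensus, 3.44% the interferon-type motif, 7.81% TGANTCA, 13.6% TATAAA and 1.79% TGACGTCA. These matches describe the letters of the windows only.

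Cxcl16 was the most abundant member in WT microglia at 4 months, at 31.3 ± 5.39 RPKM (n = 7), ahead of Cxcl10 at 11.5 ± 3.07 and Cxcl2 at 9.74 ± 3.99, whose ranges overlapped. Cxcl1 followed at 1.97 ± 0.414. Cxcl14 (0.548 ± 0.239), Cxcl13 (0.258 ± 0.207) and Cxcl9 (0.210 ± 0.123) were below 1 RPKM in every WT library of that age. In 5xFAD at 8 months (TREM2 table, n = 10) the order was different: Cxcl2 (90.3 ± 18.1), Cxcl16 (79.0 ± 9.50) and Cxcl10 (70.9 ± 12.5) overlapped at the top, Cxcl1 stood at 19.6 ± 8.89, Cxcl13 and Cxcl14 at 6.19 ± 8.91 and 5.51 ± 1.42, and Cxcl9 at 1.504 ± 0.485. Over all tables, 1 of 511 member values was at 0 reads, that of Cxcl13 in 5xFAD replicate 13 at 4 months. Cxcl9 missed the filter on low values at 4 months and was not tested there. Cxcl13 and Cxcl14 passed it at that age through groups other than WT, with no WT library at 1 RPKM. The same held for Cxcl9 and Cxcl13 in the 8 month TREM2 table.

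5xFAD was compared with WT at each age to ask what the amyloid model changes. At 4 months Cxcl1, Cxcl2, Cxcl10, Cxcl14 and Cxcl16 rose in 5xFAD microglia, 5 of the 6 members tested, while 8.95% of all genes tested were called higher. The members' median change was 0.92 on the log2 scale, against -0.02 over all genes. At 8 months all 7 members rose, beside a background of 28.3% of genes called higher. Of these, Cxcl9 and Cxcl13 passed the filter through groups other than WT. With no filter they were still called (limma, adjusted p = 5.38e-05 and 0.000922). Calls are adjusted p-values under 0.05 from limma with Benjamini-Hochberg adjustment over all genes tested, and the ± after a log2 change, which is on the log2(RPKM + 0.5) scale, is a standard error. Overlap of groups is described for the members only, and the share of all genes without overlap was not counted.

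Among the neutrophil-attracting members at 4 months, Cxcl2 ran from 6.28 RPKM through a median of 8.57 to 17.3 in WT and from 18.3 through 30.5 to 62.4 in 5xFAD. Every 5xFAD library was above every WT library. The mean was 3.66-fold higher, a log2 change of 1.77 ± 0.268 (limma, adjusted p = 4.95e-05). Cxcl1 ran from 1.496 through 1.85 to 2.56 RPKM in WT and from 2.36 through 4.12 to 8.91 in 5xFAD. The lowest 5xFAD library reached into the WT range, and the log2 change was 0.92 ± 0.233 (limma, adjusted p = 0.00749).

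At 8 months Cxcl1 ran from 2.24 through 3.42 to 5.45 RPKM in WT and from 4.24 through 22.6 to 30.6 in 5xFAD. Replicate 7 alone among the 5xFAD libraries lay within the WT range. The log2 change was 2.08 ± 0.326, and the mean was 5.11-fold higher. Cxcl2 ran from 12.98 through 17.97 to 20.2 RPKM in WT and from 64.5 through 84.8 to 117.9 in 5xFAD, a log2 change of 2.31 ± 0.181. The groups were far apart, with a mean 5.13-fold higher in 5xFAD.

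Of the CXCR3 ligands, which interferon induces, Cxcl10 ran at 4 months from 8.19 through 10.9 to 16.0 RPKM in WT and from 17.3 through 31.4 to 44.1 in 5xFAD. No library of one group reached the other, and the log2 change was 1.42 ± 0.205 (limma, adjusted p = 2.78e-05). At 8 months Cxcl10 ran from 14.7 through 15.7 to 18.3 RPKM in WT and from 54.4 through 68.5 to 90.0 in 5xFAD, again with no overlap, a log2 change of 2.08 ± 0.141. Cxcl9 was much less abundant. At 4 months it ran from 0.0645 through 0.211 to 0.443 RPKM in WT and from 0.353 through 0.704 to 0.901 in 5xFAD, and without the filter its log2 change was 0.72 ± 0.151 (limma, adjusted p = 0.00286). By 8 months the range was 0.219 through 0.370 to 0.524 RPKM in WT and from 0.446 through 1.65 to 2.00 in 5xFAD, where only replicate 9 lay in the WT range. That was a log2 change of 1.16 ± 0.195.

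Cxcl16, which is made as a membrane-anchored protein and shed by ADAM10 and ADAM17, ran at 4 months from 25.0 through 30.9 to 42.3 RPKM in WT and from 32.8 through 50.0 to 63.4 in 5xFAD. The highest WT library, replicate 12, lay inside the 5xFAD range, and the log2 change was 0.65 ± 0.125 (limma, adjusted p = 0.000699). Its range at 8 months was 30.1 through 37.1 to 39.9 RPKM in WT and from 68.8 through 77.3 to 99.9 in 5xFAD. The groups no longer overlapped, and the log2 change was 1.12 ± 0.088. Transcripts of both sheddases were lower in 5xFAD at 8 months, Adam10 by a log2 change of -0.48 ± 0.0461 and Adam17 by -0.32 ± 0.0537 (limma, adjusted p = 8.06e-09 and 2.49e-05).

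Cxcl14 ran at 4 months from 0.172 through 0.462 to 0.869 RPKM in WT and from 0.929 through 1.29 to 2.20 in 5xFAD. Levels were low in both groups but did not overlap, and the log2 change was 0.93 ± 0.169 (limma, adjusted p = 0.000341, and 0.000693 without the filter). Levels at 8 months ran from 0.733 through 0.954 to 1.27 RPKM in WT and from 3.24 through 5.71 to 8.51 in 5xFAD, a mean 5.63-fold higher and a log2 change of 2.00 ± 0.128. Cxcl13, the B cell attractant, had a log2 change of 0.28 ± 0.242 at 4 months (limma, adjusted p = 0.461), from 0.0476 through 0.187 to 0.539 RPKM in WT and from 0 through 0.348 to 1.09 in 5xFAD. At the later age it ran from 0.295 through 0.679 to 0.819 RPKM in WT and from 1.13 through 3.84 to 31.2 in 5xFAD. Every 5xFAD library was higher than every WT library, but replicate 3, at 31.2, was far above the next, at 5.49. The log2 change was 2.01 ± 0.436 (limma, adjusted p = 0.000422) with that library and 1.69 without it (adjusted p = 8.52e-05).

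Markers of other cells moved with these groups, as did many genes. Of 12622 genes tested at 8 months, 3573 were called higher and 3855 lower in 5xFAD. At 4 months 1166 of 13024 were called higher and 1015 lower. At 8 months the 8 endothelial markers, among them Cldn5 and Pecam1, were all called higher in 5xFAD, and summed to between 179.6 and 489.5 RPKM in WT and between 387.4 and 1196 in 5xFAD. The 6 mural markers were also all called higher, from 53.3 to 102.1 RPKM in WT and from 139.5 to 359.5 in 5xFAD, and all 8 microglia markers were called lower. All 5 erythrocyte markers were higher, their sums being between 17.5 and 34.4 RPKM in WT and between 26.03 and 103.2 in 5xFAD. Of 8 oligodendrocyte markers 6 were lower, with sums of 114.1 to 382.3 RPKM in WT and 106.6 to 200.5 in 5xFAD, and of 16 immediate early genes 8 were lower and 2 higher. Of 6 astrocyte markers 3 were higher and 1 lower. With the endothelial markers as a covariate, 6 of the 7 members stayed called at 8 months, and Cxcl13 did not (log2 change 1.51, adjusted p = 0.0756). At 4 months 6 of 8 microglia markers were called lower and 3 of 8 endothelial markers higher, the latter's sums being between 93.9 and 204.9 RPKM in WT and between 123.2 and 841.9 in 5xFAD; 0 of 16 immediate early genes were called. Cxcl1 lost its call with the endothelial covariate (log2 change 0.59, adjusted p = 0.0955). Beyond fits with an endothelial or an immediate early covariate, the part of these markers in the result was not tested. In bulk samples, a different share of cells of a type and a different amount of RNA per cell cannot be told apart.

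**Figure D1:**
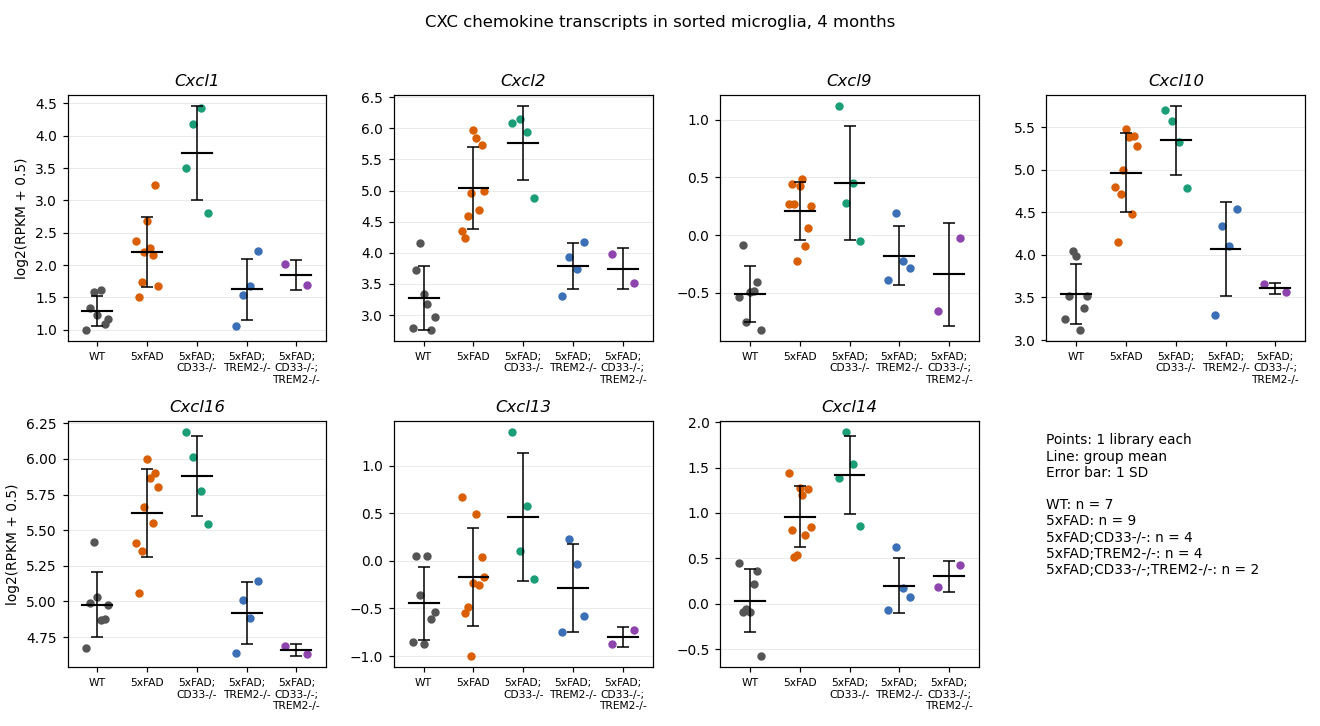
log2(RPKM + 0.5) of each CXC member (1 panel each) in every library of the 4 month table, by genotype; each point is a library, the line marks the group mean and the error bar 1 SD. Cxcl2, Cxcl10 and Cxcl14 separate 5xFAD from WT completely, and the 4 TREM2 knockout libraries have Cxcl2 values of 9.43 to 17.6 RPKM, below the lowest 5xFAD library at 18.3.

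Whether TREM2 bears on these levels was asked by comparing TREM2 knockout with 5xFAD at both ages. At 4 months Cxcl2, Cxcl14 and Cxcl16 were lower in the knockouts, 3 of 6 members tested, against 2.00% of genes called lower. At 8 months Cxcl2, Cxcl10, Cxcl13, Cxcl14 and Cxcl16 were lower, 5 of 7 members, against 10.3% of genes called lower. Cxcl1 did not pass at either age, nor did Cxcl9 at 8 months, and Cxcl9 was below the filter at 4 months. These comparisons share the 5xFAD libraries with those against WT.

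Cxcl2 at 4 months was 9.43, 14.8, 12.9 and 17.6 RPKM in the 4 TREM2 knockout libraries, all below every 5xFAD library. The mean was 2.61-fold lower, a log2 change of -1.25 ± 0.319 (limma, adjusted p = 0.0346). In the older knockouts it ran from 17.6 through 35.5 to 62.3 RPKM, below the lowest 5xFAD library at 64.5 and overlapping WT at the low end. The log2 change was -1.32 ± 0.166 against 5xFAD (limma, adjusted p = 3.23e-06). Cxcl1, its neighbour on the chromosome, was 1.59, 2.39, 2.71 and 4.15 RPKM in the knockouts at 4 months, with a log2 change of -0.58 ± 0.278 (limma, adjusted p = 0.415). Its values at 8 months were 5.47 through 11.9 to 19.4 RPKM, inside the 5xFAD range, with a log2 change of -0.60 ± 0.299 (limma, adjusted p = 0.182; 95% interval -1.21 to 0.02). Without 5xFAD replicate 7, the lowest library of its group, Cxcl1 passed (log2 change -0.81, adjusted p = 0.0203).

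Cxcl10 was 9.28, 19.8, 16.7 and 22.8 RPKM in the 4 knockout libraries at 4 months, the log2 change of -0.89 ± 0.245 just missing the threshold (limma, adjusted p = 0.0531). It passed without 5xFAD replicate 7, 10 or 11 or knockout replicate 9 (adjusted p = 0.0383, 0.0159, 0.0466 and 0.0439). At 8 months it ran from 27.4 through 38.1 to 56.6 RPKM, overlapping the bottom of the 5xFAD range, with a log2 change of -0.88 ± 0.13 (limma, adjusted p = 2.74e-05). Cxcl9 was 0.264, 0.642, 0.353 and 0.318 RPKM at 4 months, all within or below the 5xFAD range, and without the filter its change of -0.39 did not pass (adjusted p = 0.523). In the older mice Cxcl9 ran from 0.589 through 1.15 to 1.96 RPKM in the knockouts, wholly inside the 5xFAD range, and the log2 change was -0.25 ± 0.179 (limma, adjusted p = 0.373; 95% interval -0.62 to 0.12).

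Cxcl16 was 24.4, 31.7, 29.0 and 34.8 RPKM in the knockouts at 4 months, and only the highest reached into the 5xFAD range. The log2 change was -0.70 ± 0.149 (limma, adjusted p = 0.00765). At 8 months it ran from 33.0 through 43.6 to 53.5 RPKM, wholly below 5xFAD, with a log2 change of -0.86 ± 0.0808 (limma, adjusted p = 2.46e-08). Cxcl14 was 0.451, 1.04, 0.631 and 0.553 RPKM at 4 months, all but replicate 3 below the lowest 5xFAD library, with a log2 change of -0.76 ± 0.201 (limma, adjusted p = 0.0411). At 8 months it ran from 0.9305 through 1.16 to 1.38 RPKM in the knockouts, a narrow band below the lowest 5xFAD library at 3.24. The mean was 4.77-fold lower, a log2 change of -1.83 ± 0.118 (limma, adjusted p = 2.93e-11). Among the members, Cxcl14 had the smallest p at that age. Cxcl13 was 0.0937, 0.673, 0.478 and 0.168 RPKM in the knockouts at 4 months, inside the 5xFAD range. At 8 months it ran from 0.485 through 1.04 to 3.02 RPKM, overlapping 5xFAD. The log2 change of Cxcl13 was -1.42 ± 0.4 (limma, adjusted p = 0.0157, and 0.0314 without the filter). Without 5xFAD replicate 3 the change was -1.10 (adjusted p = 0.0094).

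Several single libraries decided the calls at 4 months. Without TREM2 knockout replicate 1, the lowest library of its group for all 7 members, none of the 3 stayed called (Cxcl2 -1.09, adjusted p = 0.212; Cxcl14 -0.67, 0.234; Cxcl16 -0.61, 0.0755). Without replicate 9, which held Xist and Y-linked reads, Cxcl2 (adjusted p = 0.0508) and Cxcl14 (0.143) lost theirs, and without replicate 7 they did too (0.0989 and 0.112). Over all genes, calls went from 311 to 157 without replicate 1 and to 207 without replicate 9. Cxcl2 was also lost without knockout replicate 3 (0.0619) or 5xFAD replicate 4, 6, 8 or 9 (0.0601, 0.0667, 0.067 and 0.0501), and Cxcl14 without 5xFAD replicate 1, 4, 6, 8 or 9 (0.064, 0.075, 0.0795, 0.0806 and 0.0524). Over these fits the log2 change of Cxcl2 stayed between -1.38 and -1.09 and that of Cxcl14 between -0.77 and -0.67. With no filter on low values, Cxcl2 and Cxcl14 did not pass (limma, adjusted p = 0.0614 and 0.071). With the 3 libraries holding Xist and Y-linked reads all left out, Cxcl16 stayed called, and Cxcl2 (-1.38, adjusted p = 0.0667) and Cxcl14 (-0.72, 0.145) had changes about as large as with them but did not pass.

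Markers of other cells were read beside these values. Of 12622 genes tested at 8 months, 889 were called higher and 1300 lower in the knockouts. Of 8 endothelial markers 0 were called at either age, and they summed to between 572.7 and 1476 RPKM in the knockouts at 8 months. At 8 months 4 of 8 oligodendrocyte markers (Cnp, Mag, Opalin and Mog) were higher in the knockouts, with sums of 140.3 to 295.3 RPKM against 106.6 to 200.5 in 5xFAD. The microglia markers P2ry12 and Tmem119, 2 of 8, were also higher, and of 16 immediate early genes 5 were higher and 1 lower. At 4 months 0 genes of these 3 lists were called. Their part in the result was not tested, save for fits with an endothelial or an immediate early covariate.

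TREM2 knockout was then set against WT. At 4 months 0 of 6 members passed, with 0.399% of genes called in either direction; 0 members had an unadjusted p under 0.05 in limma, and 0 passed with voom. At 8 months 5 of 7 members were higher in the knockouts than in WT, against 19.9% of genes called higher. Cxcl1 was 3.07-fold higher in mean, a log2 change of 1.48 ± 0.341 (limma, adjusted p = 0.00116), with every knockout library above every WT library. Cxcl10 and Cxcl9 also did not overlap with WT and had log2 changes of 1.20 ± 0.148 and 0.91 ± 0.204 (limma, adjusted p = 1.84e-06 and 0.000893). Cxcl9, which passed the filter through groups other than WT, had an adjusted p of 0.00186 in limma with no filter. Cxcl2 changed by 0.99 ± 0.19 (limma, adjusted p = 0.000207). Cxcl16 had a change of 0.27 ± 0.092 (limma, adjusted p = 0.0228), which was lost without WT replicate 1 (0.0663), WT replicate 2_3 (0.0502) or knockout replicate 6 (0.0508). Cxcl14 and Cxcl13 had changes of 0.17 ± 0.134 and 0.59 ± 0.456 (limma, adjusted p = 0.332 and 0.308). Endothelial and mural markers were all called higher here as well, 8 of 8 and 6 of 6, as were 5 of 5 erythrocyte markers, and 7 of 8 microglia markers were lower. Among all 12622 genes tested, 2830 were called lower. With the endothelial covariate Cxcl1 (0.73, adjusted p = 0.459) and Cxcl9 (1.01, 0.0644) lost their calls.

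Side by side, the members sat at different places between WT and 5xFAD once TREM2 was absent at 8 months. Median levels in WT, TREM2 knockout and 5xFAD were 0.954, 1.16 and 5.71 RPKM for Cxcl14, and 37.1, 43.6 and 77.3 for Cxcl16, both close to WT. For Cxcl2 they were 17.97, 35.5 and 84.8 and for Cxcl10 15.7, 38.1 and 68.5. For Cxcl1 they were 3.42, 11.9 and 22.6, and for Cxcl9 0.370, 1.15 and 1.65, the knockout median standing farther above WT, in proportion, for these 4 members. In the same proportion to WT, Cxcl13 stood between the sets, at 0.679, 1.04 and 3.84. Against WT, however, Cxcl16 was called (limma, adjusted p = 0.0228), while Cxcl13 and Cxcl14 were not (0.308 and 0.332). Whether members differ in this respect was not tested.

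**Figure D2:**
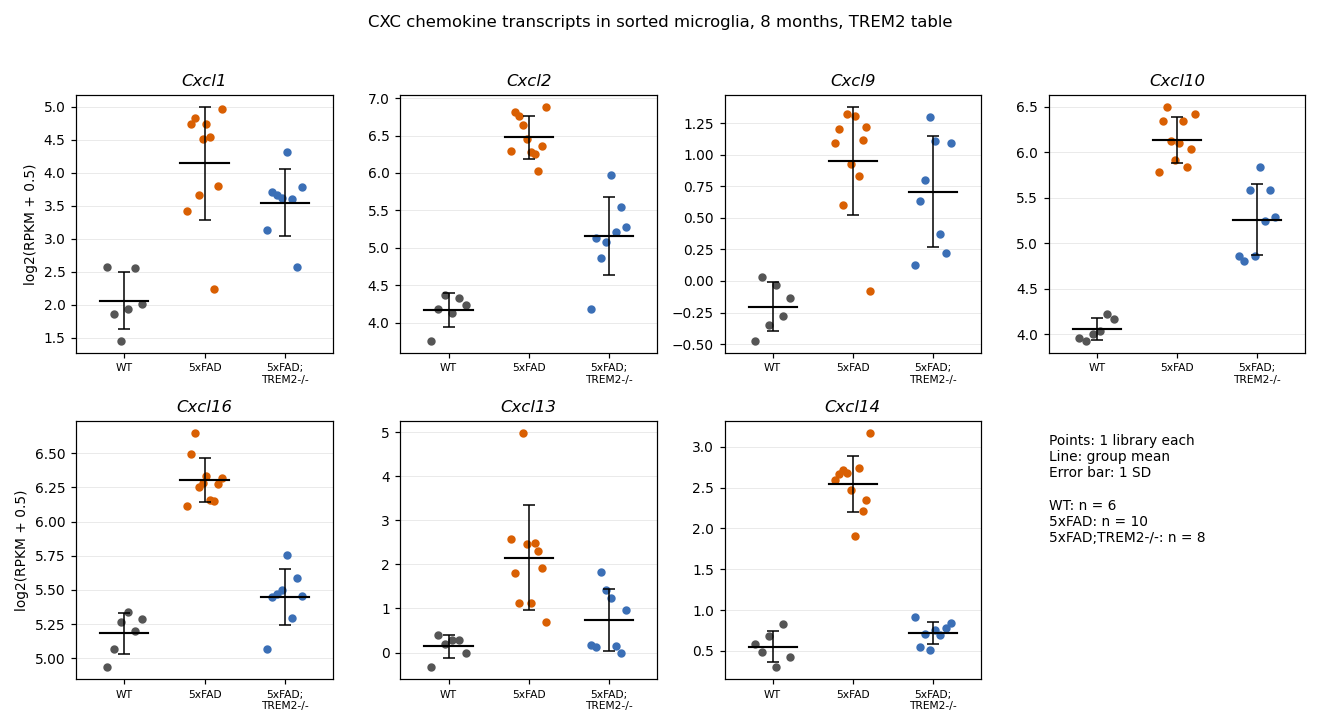
log2(RPKM + 0.5) of each member in every library of the 8 month table with WT, 5xFAD and TREM2 knockout; points are libraries, lines group means and error bars 1 SD. TREM2 knockout libraries overlap WT for Cxcl14, at 0.9305 to 1.38 RPKM, and also for Cxcl2, Cxcl13 and Cxcl16. They overlap 5xFAD for Cxcl1, Cxcl9, Cxcl10 and Cxcl13.

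The effect of losing CD33, an inhibitory receptor, was examined by comparing CD33 knockout with 5xFAD. At 4 months Cxcl1 was higher in CD33 knockout than in 5xFAD microglia, 1 of 6 members tested, against 1.90% of genes called higher. Cxcl1 was 10.9, 17.7, 21.0 and 6.51 RPKM in replicates 1 to 4, against 2.36 to 8.91 in 5xFAD. Of the knockout libraries, 3 were above every 5xFAD library and replicate 4 was inside their range. The mean was 3.17-fold higher, a log2 change of 1.53 ± 0.278 (limma, adjusted p = 0.00618).

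Cxcl2 was 67.2, 70.5, 61.1 and 29.1 RPKM in the same libraries, a log2 change of 0.73 ± 0.319 (limma, adjusted p = 0.144), and Cxcl14 was 2.11, 3.20, 2.40 and 1.31 (0.46, adjusted p = 0.144). Replicate 4 was the lowest of the group for all 7 members, and without it both passed, Cxcl2 at 1.02 (adjusted p = 0.0373) and Cxcl14 at 0.64 (0.0367). Over all genes, calls rose from 638 to 2343 without that library. With the endothelial covariate the change of Cxcl14 was 0.11 (adjusted p = 0.942) and that of Cxcl2 0.64 (0.796); with the replicate block they were 0.0934 (0.894) and 0.75 (0.617). Cxcl10 was 51.4, 47.0, 39.6 and 27.1 RPKM, Cxcl16 72.4, 64.1, 54.3 and 46.2, and Cxcl13 2.05, 0.577, 0.987 and 0.374. All 3 overlapped 5xFAD, with adjusted p-values of 0.318, 0.259 and 0.161 in limma. Cxcl9, at 1.67, 0.716, 0.865 and 0.462 RPKM, overlapped it too.

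The call of Cxcl1 depended on the libraries and the model. It was lost without CD33 knockout replicate 2, which held Xist and Y-linked reads (log2 change 1.38, adjusted p = 0.0794), and without replicate 3 (1.29, 0.0921). Leaving out all libraries with such reads gave 1.38 (adjusted p = 0.0902). Over all genes, calls went from 638 to 22 without replicate 2, 24 without replicate 3 and 22 without all libraries with such reads. Endothelial markers summed to between 287.9 and 750.1 RPKM in the CD33 knockouts, median 517.2, and to a median of 215.3 in 5xFAD; 1 of 8, Flt1, was called higher. With them as a covariate the change of Cxcl1 was 1.08 (adjusted p = 0.199). Cxcl12, a chemokine known from endothelial and stromal cells, was also higher, by 1.15 ± 0.315 (limma, adjusted p = 0.0429), and 4 of 8 oligodendrocyte markers were higher, their sums being between 95.9 and 176.4 RPKM against 77.7 to 130.0. The microglia marker Sall1 and the erythrocyte marker Hba-a2 were lower, 1 of 8 and 1 of 5. Among all 13024 genes tested, 247 were called higher and 391 lower.

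At 8 months, with 11 5xFAD and 12 CD33 knockout libraries, 0 of 7 members passed, while 3.30% of genes were called in either direction. In limma 1 member, Cxcl13, had an unadjusted p under 0.05, and with voom 0 passed. Cxcl1 ran from 1.15 through 6.14 to 15.2 RPKM in 5xFAD and from 1.30 through 7.89 to 18.2 in the knockouts. The ranges nearly coincided, and the log2 change was 0.33 ± 0.391 (limma, adjusted p = 0.707), with a 95% interval from -0.47 to 1.14. Cxcl2 ran from 13.2 through 93.4 to 189.8 RPKM in 5xFAD and from 42.8 through 79.1 to 143.3 in the knockouts, with an interval from -0.63 to 0.66. Cxcl16 ran from 36.5 through 70.5 to 84.8 and from 47.8 through 69.6 to 77.8, with the narrowest interval, from -0.23 to 0.29. For these members both groups covered much the same levels.

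Cxcl10 ran from 16.5 through 48.0 to 73.4 RPKM in 5xFAD and from 24.1 through 53.0 to 110.9 in the knockouts (log2 change 0.35 ± 0.225, limma, adjusted p = 0.497). Cxcl9 ran from 0.862 through 1.497 to 2.67 and from 0.852 through 1.74 to 5.03, and Cxcl14 from 3.66 through 11.9 to 16.0 and from 5.04 through 10.5 to 14.8. Groups overlapped for both. Cxcl13 had the widest spread. It ran from 1.17 through 3.49 to 9.23 RPKM in 5xFAD and from 1.07 through 7.95 to 48.0 in the knockouts, where replicates 10, 11 and 6 stood at 48.0, 39.5 and 25.6 RPKM. Those 3 libraries were above every 5xFAD library while the lowest knockouts lay at the bottom of the 5xFAD range. The log2 change was 1.13 ± 0.503 (limma, adjusted p = 0.312; 95% interval 0.09 to 2.17). Without the library labelled CD33 knockout replicate 7, which held Cd33 reads, it was 1.17 (adjusted p = 0.385).

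Among the libraries of that age, 5xFAD replicates 4 and 5 were the lowest of their group for Cxcl1, Cxcl2, Cxcl10, Cxcl13, Cxcl14 and Cxcl16. Without replicate 4 the log2 change of Cxcl2 was -0.24 and that of Cxcl1 0.17, and no member passed without either library. All 8 endothelial markers were called higher in the CD33 knockouts, their sums being between 195.4 and 782.5 RPKM against 102.9 to 367.3. Among all 11345 genes tested, 335 were called higher. Cxcl12 and the decoy receptor gene Ackr3 were higher too, by 1.05 ± 0.214 and 0.55 ± 0.154 (limma, adjusted p = 0.0122 and 0.0468). Their part in the members' values was not tested beyond the covariate fit, in which no member passed and the change of Cxcl10 was -0.0545, against 0.35 without the covariate.

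**Figure D3:**
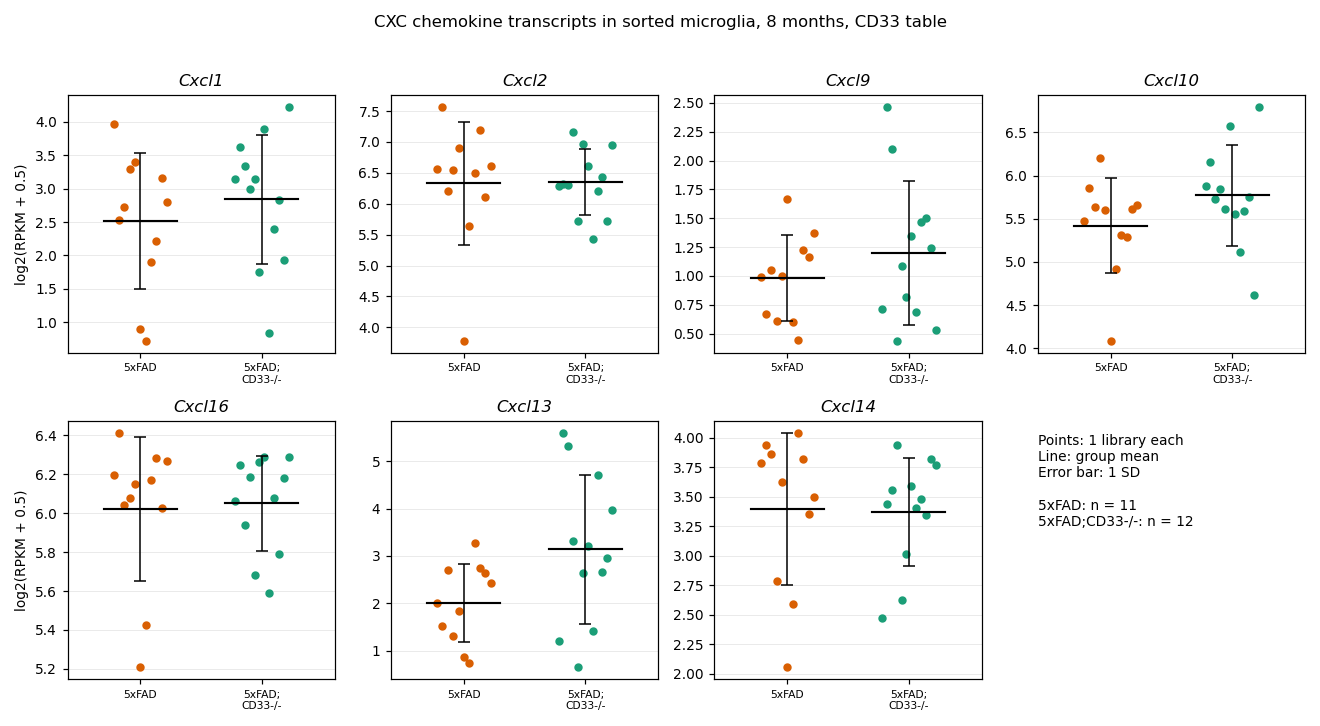
log2(RPKM + 0.5) of each member in the 11 5xFAD and 12 CD33 knockout libraries of the 8 month CD33 table; points are libraries, lines group means and error bars 1 SD. The groups overlap for every member, and Cxcl13 shows 3 CD33 knockout libraries between 25.6 and 48.0 RPKM above all others.

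Double knockouts, with 2 libraries at 4 months, were compared with 5xFAD and with each single knockout to ask how loss of TREM2 bears on CD33 knockout microglia. Cxcl1 was 3.54 and 2.72 RPKM in replicates 1 and 2, Cxcl2 was 15.2 and 10.9, Cxcl10 was 12.1 and 11.3, and Cxcl16 was 25.3 and 24.2. Cxcl14 was 0.636 and 0.840 RPKM, Cxcl13 was 0.0471 and 0.106, and Cxcl9 was 0.133 and 0.484. For Cxcl1, Cxcl2, Cxcl10, Cxcl13, Cxcl14 and Cxcl16 both libraries were below every CD33 knockout library. The share of all genes placed in this way was not counted, and with so few libraries the order alone says little.

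Against CD33 knockout, 5 of 6 members were lower, against 3.92% of genes called lower. The log2 changes in limma were -1.88 ± 0.4 for Cxcl1 (adjusted p = 0.00553), -2.02 ± 0.46 for Cxcl2 (0.00981), -1.74 ± 0.353 for Cxcl10 (0.00381), -1.11 ± 0.29 for Cxcl14 (0.0244) and -1.22 ± 0.215 for Cxcl16 (0.000835). Mean levels were 4.48-fold lower for Cxcl1 and 2.39-fold lower for Cxcl16. Cxcl13 had a log2 change of -1.26 ± 0.415 (limma, adjusted p = 0.0831) and passed without CD33 knockout replicate 4 (0.0291). Over all genes, calls rose from 639 to 1224 without that library. Cxcl16 stayed called under all 19 alternatives run. Leaving out a double knockout library leaves 1, which is then assumed to vary like the libraries of the other groups. Without replicate 2 the other 4 lost their calls, at log2 changes of -1.72 for Cxcl1 (adjusted p = 0.108), -1.79 for Cxcl2 (0.164), -1.69 for Cxcl10 (0.0614) and -1.23 for Cxcl14 (0.11). Without replicate 1, which held Cd33 reads and both Xist and Y-linked reads, Cxcl14 was lost (-0.99, 0.169), as it was without CD33 knockout replicate 2 (0.084) or 3 (0.0622). With all libraries holding Xist and Y-linked reads left out, 1 member, Cxcl16, was called.

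Against 5xFAD, Cxcl10 and Cxcl16 were lower in the double knockouts, 2 of 6 members against 3.41% of genes called lower, with log2 changes of -1.36 ± 0.318 and -0.96 ± 0.194 (limma, adjusted p = 0.0147 and 0.00402). With 1 double knockout library left, neither passed, while the changes stayed about as large. Without replicate 1 they were -1.40 and -0.99 (adjusted p = 0.141 and 0.0696), and without replicate 2 they were -1.31 and -0.94 (0.17 and 0.0877). Against TREM2 knockout 0 of 6 members passed, with 0.0691% of genes called in either direction, 0 members at an unadjusted p under 0.05 in limma and 0 with voom. The 95% interval of that difference ran from -0.60 to 1.05 for Cxcl1 and from -0.70 to 0.18 for Cxcl16 on the log2 scale. The test of whether the effect of CD33 loss differed with and without TREM2 called 0 of 6 members and 0.00% of genes. At an unadjusted p under 0.05 in limma it held 2 members, Cxcl1 (1.30 ± 0.487, p = 0.0136) and Cxcl13 (p = 0.034), among 664 genes, and voom called 0 genes.

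**Figure D4:**
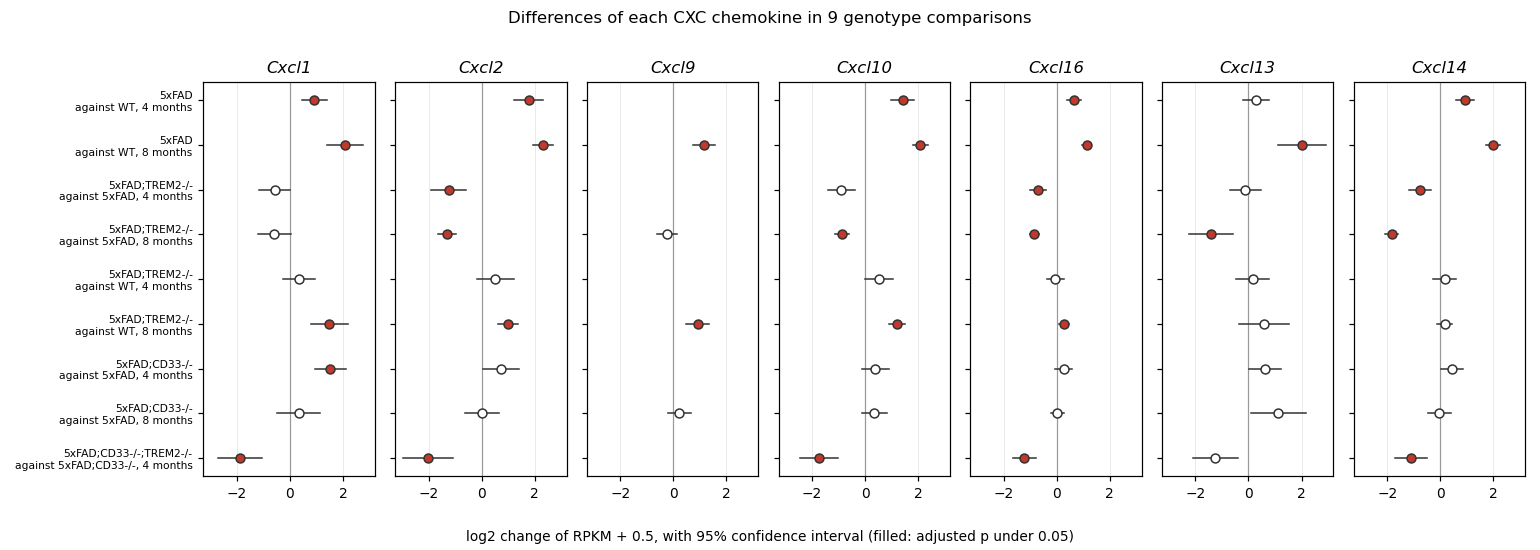
Log2 change of each member tested (columns named by gene, rows by comparison), with filled markers for adjusted p under 0.05 and bars for the 95% interval. Double knockout against 5xFAD and against TREM2 knockout, and the test of CD33 loss with and without TREM2, are not drawn. Cxcl9, not tested at 4 months, has no marker at that age. Estimates lie to the right of 0 for 5xFAD against WT at both ages and to the left of 0 for TREM2 knockout against 5xFAD. In the latter, intervals of Cxcl13 at 4 months and of Cxcl1 and Cxcl9 at 8 months cross 0. In the former, that of Cxcl13 at 4 months does.

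Across libraries of a group, some members varied together. After the group mean was subtracted, log2 levels of Cxcl2 and Cxcl16 had Pearson correlations of 0.894, 0.856 and 0.79 in the 4 month, CD33 and TREM2 tables (26, 23 and 24 libraries), although the genes lie on different chromosomes. Cxcl10 and Cxcl16 had 0.909, 0.622 and 0.633, and Cxcl2 and Cxcl10 had 0.832, 0.745 and 0.663. The neighbours Cxcl1 and Cxcl2, which share the κB match printed above, had lower values, of 0.702, 0.53 and 0.361. Cxcl9 and Cxcl10, also neighbours, had -0.226 and -0.165 in the 8 month tables. Cxcl9 varied with Cxcl13 there (0.496 and 0.592). Libraries share depth, sorting and handling, so these values are descriptions.

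**Figure D5:**
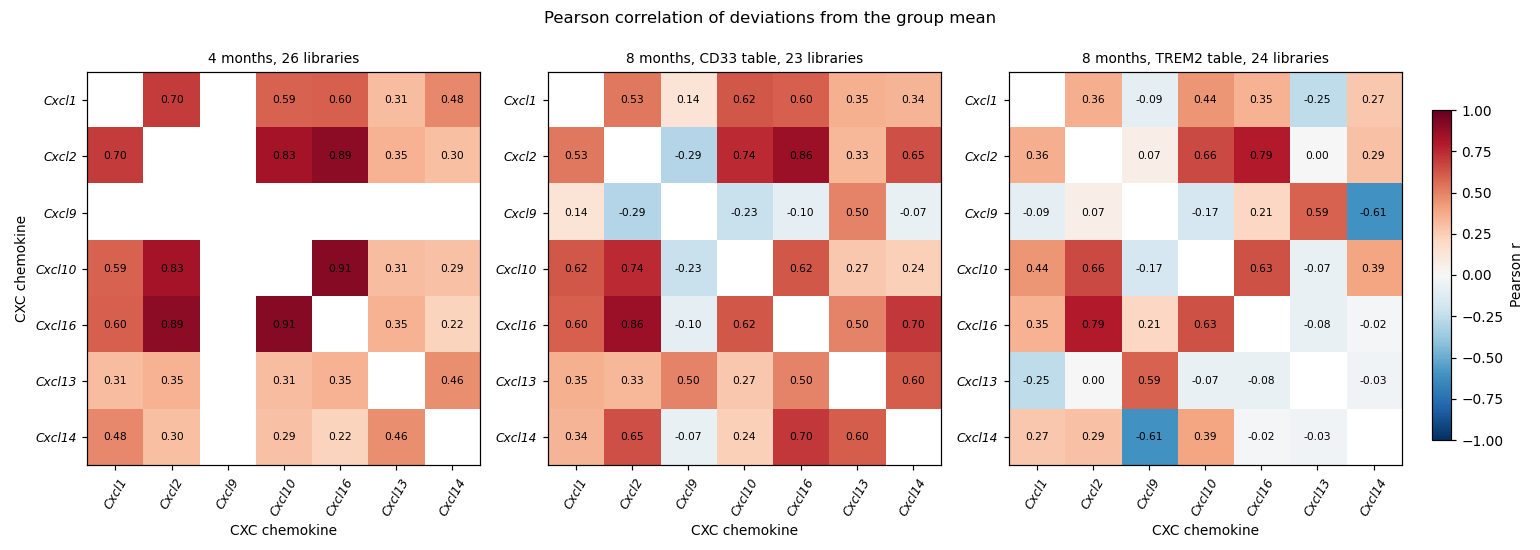
Pearson correlation between members of log2(RPKM + 0.5) after subtracting group means, in the 3 tables; each cell is a pair of members and the colour scale runs from negative to positive. Cxcl2, Cxcl10 and Cxcl16 form the block of high values, while Cxcl9 is near or below 0 with Cxcl10 at 8 months.

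Genes outside the family were ranked by the same measure, averaged over the 3 tables, among 11151 genes. Among the 5 nearest to Cxcl16 were the prostaglandin receptor gene Ptger4 (0.891), the NF-κB inhibitor gene Tnfaip3 (0.87), Ccrl2 (0.862) and Rab20 (0.854). Among the 5 nearest to Cxcl2 were Vegfa (0.871), Sdc4 (0.859), the innate receptor gene Tlr2 (0.835) and Ptger4 (0.825), so Ptger4 stood in both lists. Cxcl10 was nearest to Tlr2 (0.819) and Il1b (0.794), then to Il1rn, Sdc4 and Il12b (0.788 each).

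Other genes led for the remaining members. Cxcl1 was nearest to Rgs16 (0.691), Rnd1 (0.66), Bhlhe40 (0.652), the cyclooxygenase gene Ptgs2 (0.627) and Gadd45a (0.624). Cxcl14 was nearest to Kif1a (0.766), Gpnmb (0.76), a glycoprotein gene of lipid-laden macrophages, Dkk2 (0.747), Colec12 (0.709) and Anxa5 (0.703). Cxcl13 was nearest to Apoc4 (0.705), Hpse (0.662), the MHC class I gene H2-K1 (0.656), Ccl5 (0.653) and Oasl1 (0.638).

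Of 8 other CXC ligands, Cxcl5, Cxcl15 and Cxcl17 were at most 0.299 RPKM in every library, and 2 or 3 per table passed the filter. Cxcl11, the third CXCR3 ligand, which GENCODE M21 lists as a polymorphic pseudogene, was 0.410 ± 0.156 RPKM (n = 6) in WT and 0.995 ± 0.302 (n = 10) in 5xFAD at 8 months, a log2 change of 0.71 ± 0.193 (limma, adjusted p = 0.00327). In TREM2 knockout it was 1.25 ± 0.708 (n = 8), and like Cxcl9 it did not pass against 5xFAD (limma, adjusted p = 0.569). Cxcl12 rose in 5xFAD at 8 months by 1.11 ± 0.289 (limma, adjusted p = 0.00213), beside the endothelial markers.

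Among the receptors, Cxcr4, which binds CXCL12, moved as Cxcl2 and Cxcl16 did. At 4 months it was 6.18 ± 1.44 RPKM (n = 7) in WT, 16.6 ± 5.89 (n = 9) in 5xFAD and 7.26 ± 1.32 (n = 4) in TREM2 knockout. The log2 change was 1.31 ± 0.194 for 5xFAD against WT and -1.09 ± 0.232 for TREM2 knockout against 5xFAD (limma, adjusted p = 3.89e-05 and 0.00852). At 8 months these were 2.23 ± 0.146 and -0.80 ± 0.134 (adjusted p = 1.32e-11 and 0.00014). Receptors of the members themselves were scarce in the sorted cells. Cxcr3 was 0.946 ± 0.204 RPKM (n = 9) in 5xFAD at 4 months and was lower than in WT, by a log2 change of -0.33 ± 0.104 (limma, adjusted p = 0.0285). Cxcr5 and Cxcr6 were at most 0.514 and 0.450 RPKM in every library. Cxcr2 ran from 0.367 to 3.29 RPKM in the CD33 table, from 0 to 1.36 in the TREM2 table and from 0 to 0.218 at 4 months. The 6 neutrophil markers summed to between 195.6 and 2581, between 109.2 and 2195 and between 43.8 and 648 RPKM in these tables.

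Among 18 NF-κB and inflammatory genes, 6 rose and 1 fell in 5xFAD at 4 months, and 14 rose and 2 fell at 8 months, where 8.95% and 28.3% of all genes were called higher. The list's median log2 change was 0.32 and 0.64, against -0.02 over all genes at both ages. Il1b, the interleukin-1β gene, changed by 2.12 ± 0.22 and 3.39 ± 0.182, and Tnf by 0.92 ± 0.234 and 1.25 ± 0.105 (limma, adjusted p = 2.48e-07, 2.78e-13, 0.0077 and 8.13e-10). In TREM2 knockout against 5xFAD, 1 of the 18 was lower at 4 months, Il1b, and 11 at 8 months, against 2.00% and 10.3% of all genes. At 8 months Il1b changed by -1.94 ± 0.167 and Tnf by -0.78 ± 0.096 (limma, adjusted p = 5.87e-09 and 2.2e-06). Of 16 interferon-induced genes, among them Rsad2 and Ifit1, 12 rose in 5xFAD at 4 months and 13 at 8 months, beside the same 8.95% and 28.3%. In TREM2 knockout against 5xFAD 3 were lower at 4 months and 4 at 8 months. The list's median change was -0.30 at 4 months and 0.07 at 8 months, against 0.02 over all genes at both. In double against CD33 knockout, 5 of the 18 and 6 of the 16 were lower, against 3.92% of all genes.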

How the data were processed

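mRNA of sorted microglia was sequenced in 73 libraries, which were grouped by the genotype and age that their labels give. STAR (an aligner), HTSeq (a read counter) and the mouse build GRCm38 (mm10) are named per the submitters' processing notes. The sources used here do not give tool versions, annotation release or strand setting. The authors deposited RPKM values in 3 tables, for 4 months, for 8 months with CD33 knockout and for 8 months with TREM2 knockout. RPKM multiplied by gene length gave whole read numbers (tolerance 0.05 reads) for 100.0% of values, and each of 279 within-group pairs differed by more than counting error (chi-square at least 5.26 times its degrees of freedom), so no library was counted as a duplicate.

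log2(RPKM + 0.5) was tested with limma 3.58.1 in R 4.3.3 (trended, robust, two-sided), with all groups of a table in 1 fit and 21 residual degrees of freedom. A gene was tested if it reached an RPKM of 1 in 2, 11 and 6 libraries of the respective tables, the size of their smallest groups, which left 13024, 11345 and 12622 genes. p-values were adjusted by Benjamini-Hochberg over all of them, and a call is an adjusted p under 0.05. The log2(RPKM + 0.5) scale understates the change of genes with low values. Whether every library came from its own animal is not stated, and some titles carry a pair of animal numbers, so p-values measure the spread between libraries, which may be technical.

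The members and the 21 gene lists were chosen with earlier results of these data known. All 7 members are named throughout, with up to 4 genes of smallest p per list, Cd33 and Trem2, and the 5 genes most correlated with each member that passed the filter in all tables, save for an item that is not reported here. Genes named as the only call of a list, or as other ligands and receptors, were chosen after their values were seen.

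On simulated data with 200 changed genes, the fit found between 63 and 97% of genes changed by a log2 of 1 over the 12 comparisons, and between 20 and 75% of those changed by 0.5; between 1 and 12 unchanged genes were called. Libraries labelled with the same replicate number did not deviate together in every pair, so the numbers were not taken as pairs. In TREM2 knockout against 5xFAD at 8 months 5 of 6 correlations were over 0.1, the highest at 0.673. In double against TREM2 knockout 1 of 1 was, and in the other comparisons a smaller share. Alternatives were pseudocounts of 0.1 and 1, no filter and an RPKM of at least 2, median-ratio scaling, voom on recovered reads, fits of only the groups compared, a replicate block, the title code as a factor, endothelial and immediate early covariates, leaving out libraries against their Cd33 label (above 1 RPKM) or with Xist and Y-linked reads (at least 1 RPKM each), and leaving out each library in turn.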

Additional observations from a re-analysis of the deposited data

Results flagged for a closer look

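In 49 combinations of member and group with 4 to 10 libraries, 2 had a highest library farther from its neighbour than Dixon's test allows; chance gives about 1 in 20. Cxcl13 in 5xFAD replicate 3 of the 8 month TREM2 table stood at 31.15 RPKM, with the next library at 5.49. Its gap was 0.855 of the group's range. Cxcl16 in WT replicate 12 at 4 months stood at 42.32 RPKM, with the next at 32.1. That gap was 0.588 of the range, and without the library the log2 change of Cxcl16 in 5xFAD against WT was 0.72 (limma, adjusted p = 0.000228).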

How the results depend on the processing

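Over 1957 combinations of a member, a comparison and an alternative, 1821 kept their direction and their side of the threshold, 78 lost a call and 17 gained one. The other 41 changed sign, in 13 pairs of member and comparison; 0 of these were called before or after. Counts of members called moved little in both comparisons of 5xFAD with WT (4 to 6 at 4 months against 5, and 6 or 7 at 8 months against 7). For TREM2 knockout against 5xFAD at 4 months, 3 fell to 1 without the filter, with only the groups compared, with the title code as a factor and without libraries holding Xist and Y-linked reads. Over all genes, calls went from 311 to 148 with only the groups compared, 178 with the title code and 184 without those libraries. For CD33 knockout against 5xFAD at 4 months, 1 became 0 with only the groups compared, with the endothelial covariate and without those libraries, and 3 with the title code or the immediate early covariate. Over all genes, calls went from 638 to 26, 23, 22, 1964 and 198 in these settings, in that order. For double knockout against 5xFAD, 2 became 1 with only the groups compared and 0 with the title code or without libraries that go against the Cd33 label or hold Xist and Y-linked reads. For double against CD33 knockout, 5 became 2 with only the groups compared or the title code, and 1 without libraries holding such reads. For TREM2 knockout against WT at 8 months, 5 became 3 with the endothelial covariate, while calls over all genes went from 5342 to 992. With only the groups compared, calls over all genes in double knockout went from 488 to 167 against 5xFAD and from 639 to 206 against CD33 knockout. The title code is the code that opens each library title. Double knockout replicate 2 was alone under its code, as were WT replicate 12 and 5xFAD replicate 4 at 4 months. With the title code as a factor these libraries no longer inform the comparisons, and the double knockout rests on replicate 1. Apart from this and the smaller numbers of libraries, the cause was not tested. Leaving out each library in turn gave 0 to 3 members for CD33 knockout and 0 to 4 for TREM2 knockout against 5xFAD at 4 months, 0 to 2 for double knockout against 5xFAD and 1 to 6 against CD33 knockout.

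With the replicate block, counts at 4 months were 1 for TREM2 knockout and 0 for CD33 knockout against 5xFAD, and 0 for double knockout against 5xFAD and 2 against CD33 knockout; at 8 months Cxcl13 in TREM2 knockout against 5xFAD had an adjusted p of 0.0641. The block moved no other count of members by over 1.5 times. Over all genes at 4 months, it took calls from 638 to 19 in CD33 knockout against 5xFAD. In double knockout it took them from 488 to 320 against 5xFAD and from 639 to 379 against CD33 knockout. At 8 months it took them from 2189 to 1223 in TREM2 knockout against 5xFAD.

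The sign changes under other alternatives than leaving out a library were these, as log2 changes. In CD33 knockout against 5xFAD at 8 months, Cxcl2 was -0.0579 with the replicate block, -0.00234 with the title code and -0.178 with the endothelial covariate, Cxcl10 was -0.0545 with the endothelial and Cxcl14 0.00322 with the immediate early covariate. In TREM2 knockout against WT at 4 months, the replicate block gave Cxcl13 -0.0843 and Cxcl16 0.0274, the title code gave Cxcl16 0.0914, the immediate early covariate gave Cxcl16 0.0800, and the endothelial covariate gave Cxcl1 -0.00662, Cxcl13 -0.0565 and Cxcl14 -0.0999. At 8 months that covariate gave Cxcl13 -0.0282 and Cxcl14 -0.0384. In double against TREM2 knockout, Cxcl14 was -0.18 with the replicate block and -0.0305 with the endothelial covariate, and Cxcl2 was 0.00998 with the immediate early covariate. Leaving out each library gave, for CD33 knockout against 5xFAD at 8 months, -0.24 to 0.14 for Cxcl2, -0.16 to 0.0553 for Cxcl14 and -0.0546 to 0.0685 for Cxcl16. At 4 months it gave -0.29 to 0.0362 for Cxcl13 in TREM2 knockout against 5xFAD, -0.011 to 0.32 for Cxcl13 and -0.13 to 0.0361 for Cxcl16 against WT, and -0.28 to 0.18 for Cxcl2 and -0.0174 to 0.24 for Cxcl14 in double against TREM2 knockout. The cause was not tested.

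Counts over all genes moved more: 638 in CD33 knockout against 5xFAD at 4 months (19 to 2343 over the alternatives), 374 at 8 months (14 to 561), 488 and 639 in double knockout against 5xFAD (75 to 591) and CD33 knockout (169 to 1224), 9 against TREM2 knockout (5 to 22), 311 and 2189 in TREM2 knockout against 5xFAD (148 to 473 and 1223 to 2792), 52 and 5342 against WT (26 to 82 and 992 to 5497), 2181 and 7428 in 5xFAD against WT (1306 to 2634 and 3978 to 8101), and 0 for the test of CD33 loss with and without TREM2 (0 to 4). In CD33 knockout against 5xFAD at 4 months, 38.7% of calls were higher, and 49.2% with median-ratio scaling.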
